A study of Arabidopsis thaliana with 4 samples.

Results

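The B-box (BBX) family of Arabidopsis thaliana consists of 32 genes, BBX1 to BBX32. They were taken by their locus codes, and each of the 32 had a value among the 27416 gene models listed for both genotypes. The data are transcript levels of whole Col-0 seedlings, wild type (WT) and a phytochrome B mutant (phyB). Seeds were kept for 4 days at 4°C, and seedlings then had 12 h in white light and 4 days in red light (60 μmol per m2 per s), on medium with 1% sucrose. Growth lasted 4.5 days in all. The labels list 2 samples per genotype, and give neither the phyB allele nor the hour of harvest. For each genotype there is 1 column of reads and 1 of RPKM (reads scaled by coding length and by the column total). No value therefore has a replicate check, and no test between genotypes was possible.

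BBX proteins are zinc-finger transcription regulators that carry either a single B-box or a pair of them near the amino terminus, a fold that mediates contacts between proteins. Groups I, II and III also have a CCT domain at the other end, as in CONSTANS, and are the CO-like (COL) genes. Group IV has a pair of B-boxes and no CCT domain, and group V has a single B-box and no CCT domain. In seedlings many BBX proteins act beside the bZIP factor HY5 and are degraded through the COP1/SPA ubiquitin ligase, some promoting and some restraining the switch to growth in light. Phytochrome B is the main receptor of red light in green seedlings and lowers the activity of COP1/SPA and of the PIF growth factors.

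Depth was 33521717 reads for WT and 33201394 for phyB. Chloroplast genes took 1.87% of reads in WT and 2.18% in phyB. PHYB itself stood at 36.3 RPKM in WT and 14.1 RPKM in phyB. None of 19 organ markers was at 0 reads. The 5 markers of green tissue summed to 36877 RPKM in WT and 36601 RPKM in phyB, and the 3 of the shoot apex to 49.8 and 44.7 RPKM. The sum for green tissue hides opposite directions, as 3 of its markers were lower and 2 higher in phyB, with log2 ratios from -0.37 to 0.31. The 6 root markers summed to 3539 and 2538 RPKM, of which PYK10 alone held 3280 and 2384 RPKM. Of the 6, 5 were lower in phyB, against 51% of all genes, and EXP7 was higher. The 95% counting intervals (explained below) of EXP7, COBL9 and RHS12 held 0, and those of PYK10, BGLU21 and BGLU22 lay below 0. The 5 seed markers summed to 26.2 and 15.01 RPKM. Of the seed markers EM6 stood at 10.8 and 1.19 RPKM, EM1 at 2.53 and 0.919 RPKM, and SESA1 at 1.87 and 3.77 RPKM. OLE1 and CRA1 had log2 ratios of -0.28 and -0.26. In RNA of whole seedlings, fewer cells of a type and less RNA per cell cannot be told apart, and the part of organ makeup in the BBX differences was not tested. The titles of the WT samples carry a word for a repeated analysis that those of the mutant lack, so genotype and a possible batch cannot be told apart.

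Most of the family was expressed in red light, over a very wide range. In WT 27 of the 32 genes had at least 1 RPKM and 6 had at least 100 RPKM, and in phyB the counts were 28 and 6. BBX24 (STO, a repressor of light responses first described as a salt-tolerance gene) was the most abundant member, at 537 RPKM in WT and 478 RPKM in phyB. It supplied 27.7% of the summed RPKM of the family in WT and 28.0% in phyB. BBX5 (COL4) followed with 216 and 209 RPKM. The family as a whole summed to 1942 RPKM in WT and 1704 RPKM in phyB, which rested on 60630 and 51950 reads. At the other end, BBX26 had 0 reads in both columns, BBX9 had 2 and 0 reads, and BBX10 had 3 and 5 reads. A column at 0 reads allows up to 3 reads, so no fold is given for BBX9 and BBX26.

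**Figure D1:**
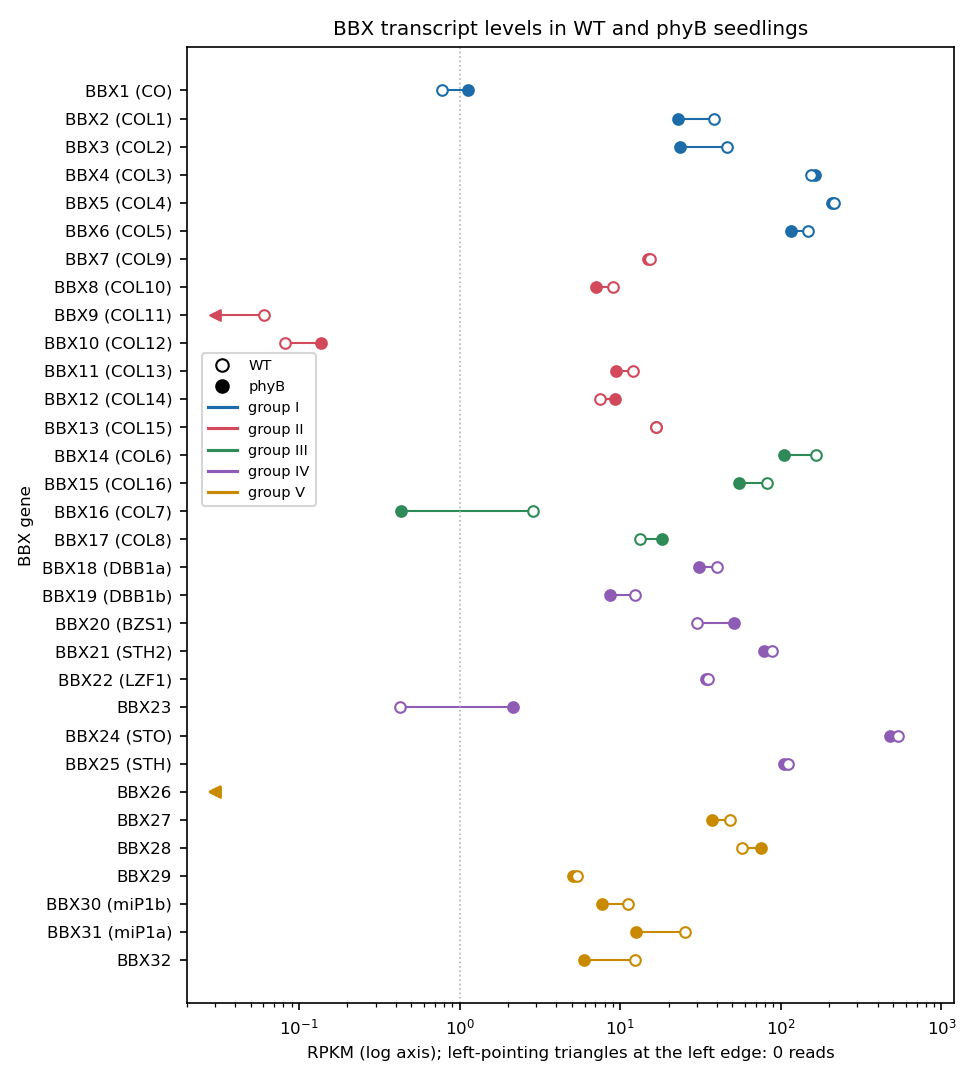
Level of each of the 32 BBX genes in WT (open) and phyB (filled) in RPKM on a log axis, coloured by structural group, with triangles for columns at 0 reads. BBX24 lies furthest to the right at 537 and 478 RPKM, and the widest gaps between open and filled points belong to BBX16 and BBX23.

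The difference between genotypes is given as the log2 ratio of RPKM, phyB over WT, so that 1 stands for a 2-fold higher and -1 for a 2-fold lower level in phyB. Its 95% interval is exact for the read counts and covers counting error only. A mean of at least 1 RPKM over both columns was asked for, which 28 of the 32 members reached; CO, BBX9, BBX10 and BBX26 did not. Of the 28, BBX23 was at least 2-fold higher, and BBX16, BBX31 and BBX32 were at least 2-fold lower. Over all 19297 genes that met the filter, 5.38% differed at least 2-fold, 3.2% upward and 2.18% downward. For BBX23 and BBX16 the whole counting interval lay beyond 2-fold, as it did for 2.27% of all genes, 1.26% upward and 1.01% downward. Nothing particular to the family is read from so few genes. BBX16 reached the filter only through its WT value and BBX23 only through its phyB value, so a difference was built into their passing.

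Smaller differences leaned to lower levels in phyB. The ratio was below 0 for 21 of the 28 members, against 51% of all genes, and for 20 to 22 of them under other scalings. The counting interval lay wholly below 0 for 18 members (32% of all genes), wholly above 0 for 6 (29.8%), and held 0 for 4 (38.1%). Intervals narrow with more reads, and these shares were not matched for level. The median WT level was 21.0 RPKM over the 32 members and 6.72 RPKM over all 27416 gene models. The median log2 ratio of the 28 was -0.26, and that of all genes was -0.01. At 1.5-fold the lower members were BBX2, BBX3, BBX14, BBX16, BBX31 and BBX32, which made 6 of 28 against 7.27% of all genes, and the higher ones were BBX20 and BBX23, 2 of 28 against 9.75%. These are descriptions of a single column per genotype.

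**Figure D2:**
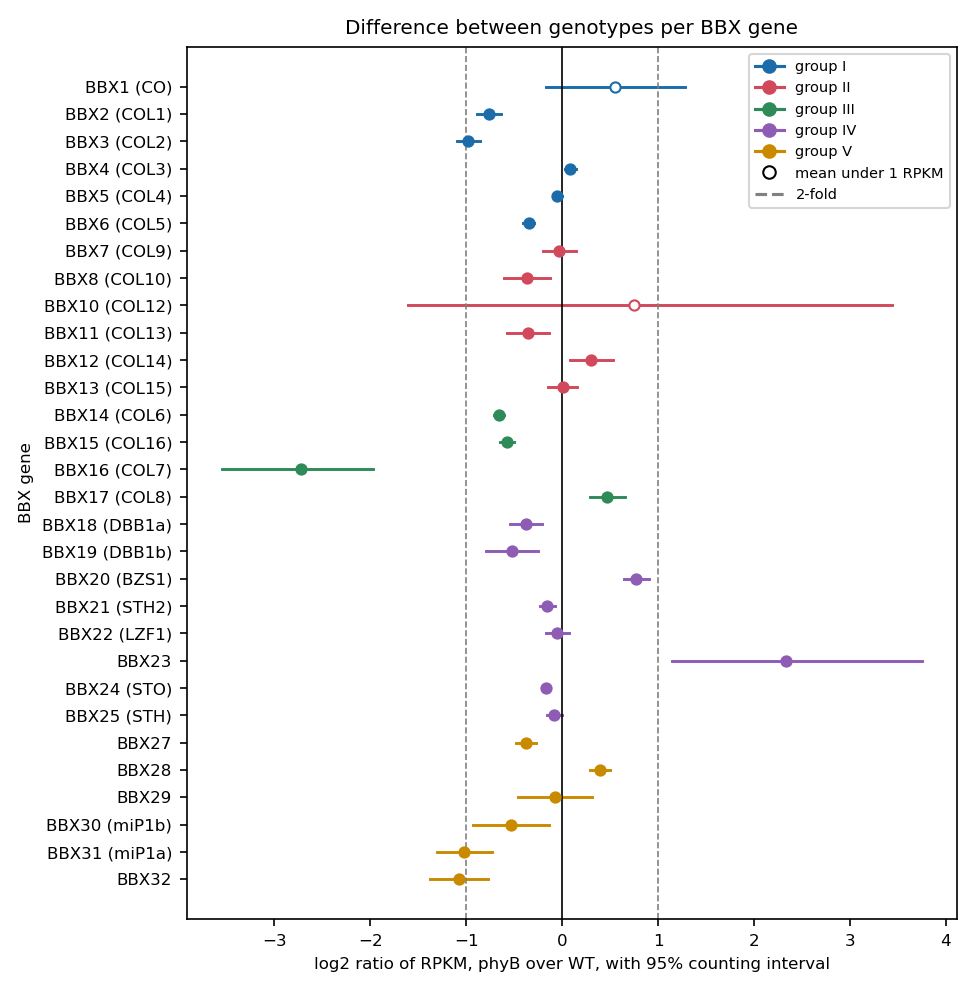
Log2 ratio of RPKM, phyB over WT, for the 30 BBX genes with a ratio, with 95% counting intervals, coloured by structural group; open points had a mean under 1 RPKM and dashed lines mark 2-fold. BBX16 at -2.72 and BBX23 at 2.34 stand outside the 2-fold lines with their whole intervals, and BBX31 and BBX32 lie close to the lower line.

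Group I holds CO and its closest relatives, each with a pair of B-boxes and a CCT domain. CO (BBX1, AT5G15840), which activates the flowering gene FT in long days, was scarce, with 29 reads (0.771 RPKM) in WT and 42 reads (1.13 RPKM) in phyB. Its log2 ratio of 0.55 had a counting interval from -0.17 to 1.28, so no difference was detectable at this depth. COL1 (BBX2) and COL2 (BBX3), the nearest relatives of CO, were both lower in phyB. COL1 stood at 38.5 RPKM in WT and 22.7 RPKM in phyB, which gives -0.76 on the log2 scale (interval -0.89 to -0.64). COL2 stood at 46.1 and 23.4 RPKM, which gives -0.98 (interval -1.10 to -0.85), which is just short of 2-fold.

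The other members of group I were abundant and differed less. COL3 (BBX4), a COP1-interacting promoter of light responses, stood at 154 RPKM in WT and 164 RPKM in phyB (log2 ratio 0.09, but -0.05 with quantile normalization). COL4 (BBX5), a repressor of flowering, stood at 216 and 209 RPKM (-0.05, or -0.24 with quantile normalization), and its level rests on a coding length of 1221 nt where the reference has 1089 nt for the same model. COL5 (BBX6), which induces flowering when overexpressed, was lower, at 148 and 116 RPKM (-0.35). Ratios were below 0 for 4 of the 5 described members, and the median was -0.35. The summed level of the group was 603 RPKM in WT and 535 RPKM in phyB.

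CO and COL1 lie one after the other on the minus strand of chromosome 5, CO at 5170162 to 5173085 and COL1 at 5176091 to 5177897 in TAIR10.1. A gap of 3005 bases separates them, and their coding sequences are 75.3% identical. In WT the level of COL1 was 38.5 RPKM and that of CO 0.771 RPKM. A long non-coding RNA gene, AT5G15845, is annotated on the opposite strand across all of COL1 and into CO, and has no value here. COL2, on the minus strand of chromosome 3 at 487069 to 489467, overlaps AT3G02370 and AT3G02390 on the opposite strand, which had log2 ratios of -0.16 and 0.17. Whether the counting used strand is not given.

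Group II has the same domains and held the lowest levels of the CO-like genes. COL9 (BBX7), which delays flowering, stood at 15.3 RPKM in WT and 14.99 RPKM in phyB (log2 ratio -0.03, but 0.02 with upper-quartile factors). BBX8 stood at 9.07 and 7.03 RPKM (-0.37), and BBX11, a promoter of light responses that acts with HY5, at 12.0 and 9.38 RPKM (-0.35). BBX12 stood at 7.53 and 9.29 RPKM (0.30) and BBX13, a repressor of flowering, at 16.7 and 16.8 RPKM (0.01). None of the 5 described members differed 1.5-fold, and the median was -0.03. BBX10, with 3 and 5 reads, had a ratio of 0.75 whose interval ran from -1.61 to 3.44.

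Group III, with a single B-box and a CCT domain, held the largest lower ratio of the family. BBX16 (COL7, AT1G73870), known for effects on branching and shade responses, had 113 reads (2.86 RPKM) in WT and 17 reads (0.434 RPKM) in phyB. The level in phyB was 6.58-fold lower, a log2 ratio of -2.72 with an interval from -3.55 to -1.98. It was the 44th lowest ratio of the 19297 genes, but BBX16 met the filter on level only through its WT value. With 1 RPKM added to both values its ratio was -1.43. BBX14 (COL6) and BBX15 (COL16) were far more abundant and also lower. BBX14 stood at 165 RPKM in WT and 105 RPKM in phyB (-0.66, interval -0.71 to -0.60), and BBX15 at 82.2 and 55.3 RPKM (-0.57, interval -0.65 to -0.50). BBX17 (COL8) went the other way, at 13.2 and 18.3 RPKM (0.47, interval 0.29 to 0.65). The group summed to 263 RPKM in WT and 179 RPKM in phyB. The log2 ratio of these sums was -0.56, and those of the other groups lay between -0.17 and -0.08. Such sums follow the most abundant members, here BBX14 and BBX15. By the median ratio group III stood less apart from the next groups, with -0.62 against -0.46 for group V and -0.35 for group I. Groups IV and II had medians of -0.12 and -0.03.

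Group IV contains both promoters and repressors of light responses and was the most abundant group, with 855 RPKM in WT and 788 RPKM in phyB. BBX23 (AT4G10240), a promoter of light responses that works with HY5, had 7 reads (0.427 RPKM) in WT and 35 reads (2.16 RPKM) in phyB. The level in phyB was 5.05-fold higher, a log2 ratio of 2.34 with an interval from 1.14 to 3.75. This was the 51st highest ratio of the 19297 genes, but BBX23 met the filter on level only through its phyB value. With 1 RPKM added to both values its ratio was 1.15. BBX20 (BZS1), a promoter of light responses that brassinosteroids repress, was the other member at 1.5-fold or more. It stood at 29.9 RPKM in WT and 51.1 RPKM in phyB, which gives 0.77 on the log2 scale (interval 0.64 to 0.91), and moved from the 15th to the 10th place by level in the family.

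The remaining promoters of light responses in group IV differed little. BBX21, which binds the HY5 promoter, stood at 88.1 RPKM in WT and 79.1 RPKM in phyB (-0.16), and BBX22 (LZF1), which acts in chloroplast development and anthocyanin formation, at 35.2 and 34.0 RPKM (-0.05). Among the repressors, BBX18 stood at 39.9 and 30.8 RPKM (-0.38) and BBX19 at 12.4 and 8.67 RPKM (-0.52). BBX24 had a ratio of -0.17 (interval -0.21 to -0.13), which became -0.42 with quantile normalization and -0.25 with the trend on coding length removed. BBX25 (STH), its partner, stood at 111 and 105 RPKM (-0.08, or -0.17 under either setting). The group had 6 of 8 ratios below 0 and a median of -0.12. BBX24 overlaps AT1G06045 on the opposite strand by 344 bases, a gene with no value here.

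Group V holds the shortest proteins. BBX30 (miP1b) and BBX31 (miP1a) are microproteins, little more than a B-box, which bind CO together with the corepressor TOPLESS and delay flowering. BBX31 (AT3G21890) had 311 reads (25.3 RPKM) in WT and 152 reads (12.5 RPKM) in phyB. This was 2.03-fold lower, with a log2 ratio of -1.02 (interval -1.31 to -0.73). BBX30 (AT4G15248) had 133 reads (11.2 RPKM) and 91 reads (7.74 RPKM), a log2 ratio of -0.53 (interval -0.93 to -0.14). Both were lower in phyB, and their intervals overlapped. BBX32 (AT3G21150), a repressor of light responses that binds BBX21, had 282 reads (12.4 RPKM) in WT and 133 reads (5.91 RPKM) in phyB, 2.10-fold lower, with a log2 ratio of -1.07 (interval -1.38 to -0.77). The intervals of BBX31 and BBX32 reach to both sides of 2-fold.

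Of the other members, BBX28, which restrains HY5, was higher in phyB, at 57.04 RPKM in WT and 74.8 RPKM in phyB (0.39, interval 0.29 to 0.50). BBX29 stood at 5.39 and 5.11 RPKM (-0.08) with an interval that held 0, and BBX27 at 48.5 and 37.3 RPKM (-0.38). The group had 5 of 6 ratios below 0 and a median of -0.46. Short genes had higher ratios as a class in these columns, with a median of 0.21 over 2871 genes of 300 to under 600 nt and of -0.06 over 4773 genes of 1200 to under 1800 nt. BBX30 (354 nt) and BBX31 (366 nt) are the shortest of the family. With that trend on coding length removed their ratios were -0.81 and -1.29, BBX32 stood at -1.17, BBX16 at -2.72 and BBX23 at 2.15.

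**Figure D3:**
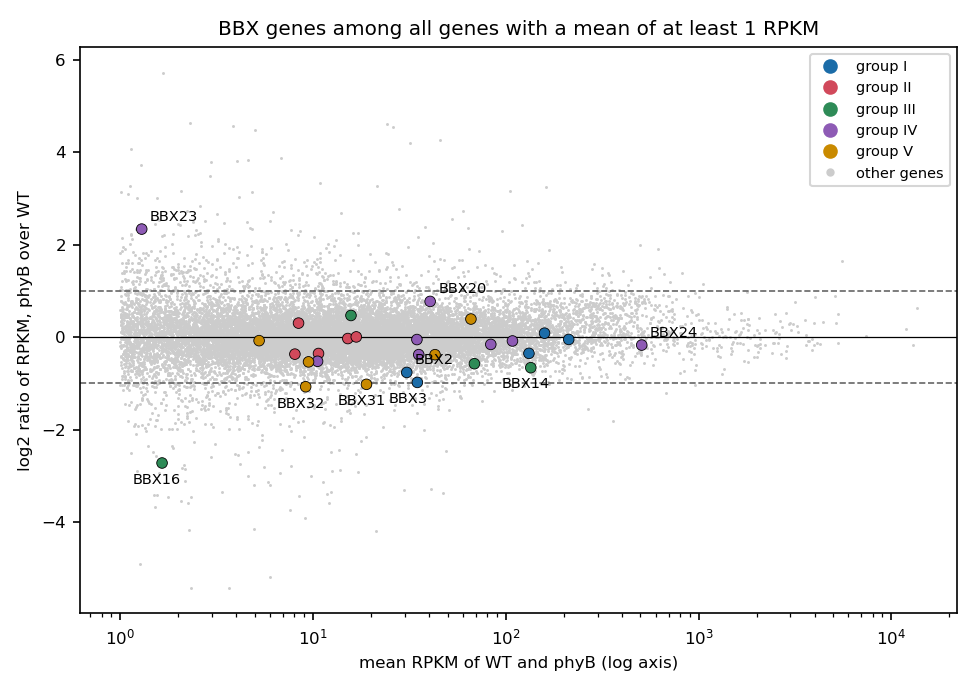
Log2 ratio of RPKM, phyB over WT, against the mean RPKM on a log axis for all 19297 genes whose mean reached 1 RPKM (grey), with the 28 BBX genes coloured by structural group and dashed lines at 2-fold. BBX16 and BBX23 lie at the low end of the expression range, and the abundant BBX24 lies at -0.17 (-0.42 with quantile normalization).

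The 2 microprotein genes share a position beside a gene of group II. BBX30 (chromosome 4, 8708841 to 8709482, plus strand) and BBX9 face each other with 284 bases between their ends. BBX31 (chromosome 3, 7708833 to 7709933, minus strand) and BBX10 do the same with 486 bases between them. Each microprotein gene has a single exon. In both places the microprotein gene was expressed and the group II gene had no more than 5 reads. The coding sequences of BBX30 and BBX31 are 70.4% identical, and those of BBX9 and BBX10 64.4%.

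The sequence before the annotated start of the 4 genes at 2-fold or more, and of BBX30 as the partner of BBX31, was read from the RefSeq copy of TAIR10.1 on the strand of the gene. BBX16, BBX23 and BBX30 were added after their values were seen. The windows hold 300 bases, except that of BBX32, which was limited to the 48 bases before the next gene, AT3G21160. Capitals mark the motifs searched, CACGTG (G-box), CACATG (PBE-box), AAAATATCT (evening element), AAAAATCT (CCA1-binding site) and CACGTT, on either strand.
BBX16, chr1:27778684-27778983, plus strand: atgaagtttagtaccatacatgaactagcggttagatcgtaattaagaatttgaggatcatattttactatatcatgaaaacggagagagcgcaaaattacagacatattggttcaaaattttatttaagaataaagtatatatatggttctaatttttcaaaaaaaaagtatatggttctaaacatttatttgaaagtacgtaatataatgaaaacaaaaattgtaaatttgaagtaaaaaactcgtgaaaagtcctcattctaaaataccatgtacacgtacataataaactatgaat
BBX23, chr4:6369951-6370250, minus strand: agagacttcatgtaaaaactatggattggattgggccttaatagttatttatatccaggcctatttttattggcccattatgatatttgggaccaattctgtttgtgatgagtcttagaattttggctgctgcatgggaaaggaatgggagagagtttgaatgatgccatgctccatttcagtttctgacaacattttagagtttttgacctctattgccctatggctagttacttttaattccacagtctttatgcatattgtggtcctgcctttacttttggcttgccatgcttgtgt
BBX30, chr4:8708541-8708840, plus strand: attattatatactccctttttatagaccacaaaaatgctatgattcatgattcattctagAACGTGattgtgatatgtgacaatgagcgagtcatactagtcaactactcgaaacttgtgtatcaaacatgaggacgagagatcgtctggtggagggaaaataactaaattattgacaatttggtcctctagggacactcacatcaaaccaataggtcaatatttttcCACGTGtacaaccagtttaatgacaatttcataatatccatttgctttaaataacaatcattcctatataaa
BBX31, chr3:7709934-7710233, minus strand: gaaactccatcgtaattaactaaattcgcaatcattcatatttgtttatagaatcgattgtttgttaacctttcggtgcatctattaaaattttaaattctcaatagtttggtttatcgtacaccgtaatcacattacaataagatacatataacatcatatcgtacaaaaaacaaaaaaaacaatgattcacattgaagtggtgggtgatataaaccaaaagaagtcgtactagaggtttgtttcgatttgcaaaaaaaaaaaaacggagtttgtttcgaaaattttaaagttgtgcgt
BBX32, chr3:7413728-7413775, minus strand: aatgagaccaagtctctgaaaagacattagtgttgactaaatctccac
The window of BBX30 holds a G-box 72 to 67 bases and the other-strand form of CACGTT 240 to 235 bases before the start. The windows of BBX16, BBX23 and BBX31 hold none of these letters, and neither do the 48 bases of BBX32. Thus the genes with the largest differences share none of the 5 motifs in these windows, which says nothing about the factors that bind such letters.

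Across the family, 15 of the 32 windows of 300 bases held at least 1 of the 5 motifs, and no sites of different motifs overlapped. The G-box was in 4 windows (12.5%), those of BBX5, BBX9, BBX10 and BBX30, and in 7.09% of 27443 windows of all nuclear protein-coding genes. The PBE-box was in 5 (15.6%) and in 13.1% of all, the CCA1-binding site in 5 (15.6%) and in 7.94%, and CACGTT in 4 (12.5%) and in 8.71%. The evening element, a sequence known from clock-controlled evening genes, was in 4 windows (12.5%) and in 2.79% of all. Its carriers were BBX3, BBX8, BBX13 and BBX24, whose log2 ratios were -0.98, -0.37, 0.01 and -0.17. The first site of each is shown with 10 bases on either side and the element in capitals, as a view of how alike the flanks are.
BBX3, chr3:489638-489666, minus strand: ataagttaccAAAATATCTtcttgttact
BBX8, chr5:19564049-19564077, minus strand: tttttaggcaAGATATTTTgttcattcat
BBX13, chr1:9778301-9778329, minus strand: ggacaaaaagAAAATATCTaacatgaatc
BBX24, chr1:1830017-1830045, minus strand: gaatataataAAAATATCTaaaggtagga
BBX8 carries the element in the other orientation at this site. Among the members with a site of any of the 5 motifs, the windows of BBX3, BBX9, BBX22 and BBX27 run into neighbouring genes. The sites there need not belong to these members.

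The ratios of closest relatives were set side by side. Each member was matched to the one with the most identical coding sequence, and 11 pairs chose each other, of which 9 had both members described. In 7 of the 9 pairs both ratios had the same sign (6 to 8 under other scalings), where 21 of the 28 members were below 0 to begin with. The difference between partners ran from 0.09 to 0.49 on the log2 scale, with a median of 0.14. The counting intervals overlapped in 8 of the 9, but they were wide for the pairs with the largest differences, BBX30 and BBX31 (0.49), BBX28 and BBX29 (0.47) and BBX7 and BBX8 (0.34). Nothing particular to close relatives is read from these values. BBX14 and BBX15 (68.6% identical) stood at -0.66 and -0.57, BBX24 and BBX25 (73.6%) at -0.17 and -0.08, and BBX18 and BBX19 (59.3%) at -0.38 and -0.52. The pair whose intervals were apart, COL3 and COL4, were both close to 0 at 0.09 and -0.05. BBX28 and BBX29 (58.9%) also differed in sign, at 0.39 and -0.08. Relatives of one family are not replicates of a genotype. No member shared a stretch of 50 bases of coding sequence with another member, so divided reads between members are limited to shorter matches. CO and BBX24 shared such stretches with AT5G15843 and AT1G06045, the genes annotated across them.

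**Figure D4:**
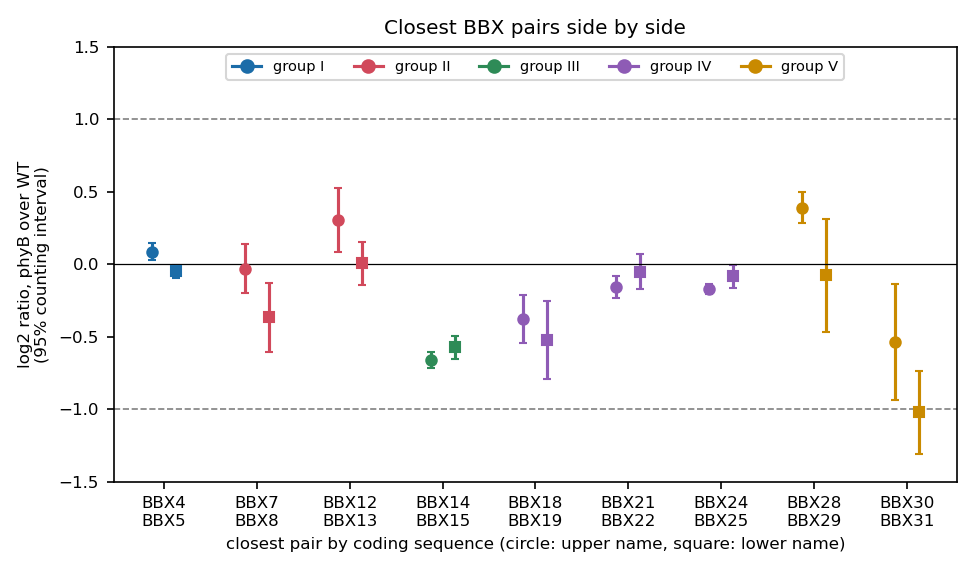
Log2 ratio of RPKM, phyB over WT, with 95% counting intervals for the 9 closest BBX pairs in which the mean of both genes reached 1 RPKM; circles stand for the upper and squares for the lower name, and dashed lines mark 2-fold. BBX14 and BBX15 lie closest together at -0.66 and -0.57, and BBX30 and BBX31 furthest apart at -0.53 and -1.02.

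The partners of BBX proteins in light signalling were also mostly lower in phyB. Of 20 genes, 17 had ratios below 0, 4 of them by 2-fold or more, none was 2-fold higher, and the median was -0.36. Over all genes 51% had ratios below 0, 2.18% were at least 2-fold lower and 3.2% at least 2-fold higher. This list and those that follow were chosen with earlier results of these data known, so their counts are descriptions only. The 4 at 2-fold were PHYB, the mutated gene itself (-1.36), and the PIF genes PIF5 (-1.34), PIF4 (-1.25) and PIF7 (-1.14). HY5, the bZIP partner of many BBX proteins, stood at 139 RPKM in WT and 114 RPKM in phyB (-0.29), and its relative HYH at 107 and 105 RPKM (-0.04). COP1, the ubiquitin ligase that targets them, stood at 30.8 and 25.9 RPKM (-0.25). HY5, HYH and COP1 thus differed by less than 1.5-fold. Longer genes had lower ratios as a class. The median was -0.16 over 2646 genes of 1800 to under 2700 nt. It was -0.21 over 1375 longer genes. Several genes of this list and of the clock and photoperiod lists are that long, such as PHYB (3519 nt), PRR5 (2004 nt) and GI (3522 nt). The part of coding length in the counts of these lists was not tested.

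In the photoperiod pathway around CO, 15 of the 17 genes described (of 19) had ratios below 0, against 51% of all genes, with a median of -0.24. At least 2-fold lower, as were 2.18% of all genes, were 2 of the 17. These were CDF1, a repressor of CO transcription, at 10.9 and 5.003 RPKM (-1.12), and SOC1, a flowering gene downstream of FT, at 4.35 and 1.82 RPKM (-1.26), the latter named after its value was seen. GI, which promotes CO transcription, stood at 38.6 and 25.0 RPKM (-0.63). FT, the target of CO, had 3 reads in WT and 0 in phyB, too few for a fold. Several BBX genes are known to cycle with the clock, and 11 of 12 clock genes had ratios below 0 (51% of all genes), summing to 419 RPKM in WT and 268 RPKM in phyB with a median of -0.60. RVE1 (-1.94), PRR5 (-1.61) and ELF4 (-1.18) were at least 2-fold lower, 3 of 12 against 2.18% of all genes. The part of clock phase in the BBX ratios was not tested. Of 6 reported targets of BBX factors 1 had a ratio below 0, against 51% of all genes, and the median was 0.58. The 1 below 0 was ABI5 (-0.64). CHI (0.90), F3H (0.77) and MYB75 (0.38) were higher, and MYB12 had 44 reads in each column. CHS, the entry enzyme of flavonoid synthesis, was at 326 and 799 RPKM (1.29), the only one of the 6 at 2-fold or more.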

How the data were processed

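RNA of whole seedlings, selected with oligo(dT) beads per the labels' protocols, was compared between the genotypes that the labels name. The authors' read columns hold estimated counts with 0.5 in place of 0, which was set back to 0 here. The RPKM values the authors deposited equal reads over a coding length and the column total, as recomputed; the lengths came out whole within 0.0004 nt. Neither the aligner, the counter, the use of strand nor the pooling of samples is named in the labels or file headers, so each column stands as the authors' value with no SD. Depth was 33521717 reads in WT and 33201394 in phyB.

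The members and lists were chosen with earlier results of these data known. All 32 members were named, and of the pathway lists those at 2-fold or more with at least 5 RPKM in either genotype, besides PHYB, HY5, HYH, COP1, FT and GI. SOC1, MYB12, CHI, F3H, MYB75, ABI5 and the root and seed markers fall outside that rule and were named after their values were seen. Ratios are of deposited RPKM. Where a column had 0 reads, a floor of 3 reads took its place, with no fold where both columns were at or under it. Intervals are exact conditional 95% intervals (Clopper-Pearson, scipy 1.17.1). PCR copies are not independent, so intervals and floors reflect counting error alone. The filter was a mean of 1 RPKM. The ratio and interval steps were run on simulated counts for 19297 genes that vary by counting error alone. The intervals held the set ratio for 95.18% of genes, which that kind of count builds in. The run therefore says nothing about the spread between samples. In it 30 unchanged genes passed 2-fold, as did 0% of 50 genes set to 1.5-fold and 96% of 50 set to 2.5-fold.

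The submitters' processing notes name TAIR10. Positions and sequences came from RefSeq's TAIR10.1, where 96.6% of 26691 nuclear models with a coding sequence had the implied length, among them 31 of the 32 members (not BBX5). Of the members, 11 share bases with an opposite-strand gene and 2 with a same-strand gene. Coding sequences were aligned globally in biopython 1.88 (match 2, mismatch -3, gap opening -7, gap extension -1). Protein sequences were not used here, and the structural groups are background knowledge. Alternatives were pseudocounts of 1 and 0.1, median scaling, quantile normalization, TMM, RLE and upper-quartile factors (edgeR 4.0.16), totals without organelle genes, removal of a lowess trend on log2 coding length (span 0.3, statsmodels 0.14.6), and other filters and fold limits.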

Additional observations from a re-analysis of the deposited data

How the results depend on the processing

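As reported, 1 BBX gene was 2-fold higher and 3 were 2-fold lower. These counts became 1 and 1 with a pseudocount of 1, 0 and 2 with a filter of 5 RPKM, 2 and 6 at 1.5-fold, 1 and 1 when the whole counting interval had to pass 2-fold, and 1 and 2 with upper-quartile factors, under which BBX31 was just short of 2-fold. BBX16 and BBX23 stayed at 2-fold or more except under the filter of 5 RPKM, which removes them, and stood at -1.43 and 1.15 with a pseudocount of 1. The family median was -0.26 as reported and ran from -0.34 with quantile normalization to -0.16 with no filter. For all genes, 1039 at 2-fold or more became 622 on the log2(RPKM + 1) scale, 2137 with no filter, 518 at 5 RPKM, 3284 at 1.5-fold and 439 with whole intervals past 2-fold, which follows from each criterion. With the coding-length trend removed their split turned from 618 higher and 421 lower to 450 and 498. Of the 30 BBX genes with a ratio, 2 changed sign under any of 9 settings, BBX4 (-0.05 with quantile normalization) and BBX7 (0.02 with upper-quartile factors). Ratios moved outside their counting intervals for 6 genes with quantile normalization, 2 each with the length trend removed and with upper-quartile factors, and 1 on the log2(RPKM + 1) scale. No paired analysis was possible because the columns, 1 of each kind per genotype, bear no replicate numbers, and leaving out a replicate was not run for the same reason. Depth limits CO, BBX9, BBX10, BBX16, BBX23 and BBX26, each with fewer than 50 reads in at least 1 column.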
